A study of Mus musculus with 4 samples.

Results

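The Robo receptors and their Slit ligands were followed through the Ptf1a lineage of the embryonic mouse cerebellum, the source of its GABAergic neurons. The members are the 6 genes Robo1, Robo2, Robo3, Slit1, Slit2 and Slit3, taken by symbol as single rows of the 4 count matrices, out of 32286 measured genes. They were described across cell types that were named from marker genes and across both genotypes.

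Cerebella of E15.5 embryos were pooled and dissociated, cells positive for the red fluorescent protein tdTomato (tdT+) were sorted, and the RNA of single cells was sequenced with 10x Genomics 3' chemistry. The 2 control libraries came from Ptf1aCre/+ embryos with the reporter R26LSL-tdT/+. The 2 En1/2 CKO libraries, called mutant here, came from embryos that carried En1lox/lox and En2lox/lox in addition to the same Cre and reporter alleles. Controls thus carried Cre and 1 disrupted copy of Ptf1a as well, and recombination was limited to cells that expressed Ptf1a or descended from such cells. About 10000 viable cells were targeted per library, and the number of embryos in a pool is not given in the sources used here, so p-values measure the spread between pools.

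Slits are secreted proteins that repel growing axons and migrating neurons, and Robos are the transmembrane receptors through which they act. Robo1 and Robo2 bind Slits and are the classical repulsive receptors. Robo3 is the divergent member: in mammals it binds Slits poorly, responds to the secreted protein Nell2, works together with the netrin receptor Dcc and is required for hindbrain commissural axons to cross the midline.

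After filtering, 22851 cells remained, with 9487 and 1171 in control replicates 1 and 2 and 4893 and 7300 in mutant replicates 1 and 2. The libraries held between 5305154 and 21021428 unique molecular identifiers (UMIs, 1 per captured transcript), and the median kept cell held 1186, 2427, 2173 and 1110 UMIs in the same order. Both controls stood apart from the other libraries: in control replicate 2 only 25.35% of barcodes passed the filters, against 59.74% to 86.32% elsewhere, and in control replicate 1 the nuclear RNA Malat1 stood at 84964 CPM (UMIs of a gene scaled to a common total), against 31391 to 33649 elsewhere. Between 41 and 76 barcodes of a library also occurred in another. Of the targeted genes, En2 was lower in both mutants than in both controls over all cells, at 103 and 48.6 CPM in controls and 30.4 and 15.3 in mutants, and En1 less so, at 110, 77.6, 69.7 and 63.0 CPM. Neither passed the test (En2 log2 fold change -1.81, SE 0.49, edgeR adjusted p = 0.9418), and whether the counted 3' ends lie inside the deleted parts was not tested.

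Classes are written "X-like" where a cluster raised enough of a marker list and met the other naming rules given under the processing. Purkinje-like cells (clusters 7 and 10) raised Calb1, Skor2, Foxp2, Ebf1 and Rora, and interneuron-like cells (clusters 0 and 11) raised Pax2, Tfap2a, Tfap2b, Slc6a5 and Slc32a1. Intermediate progenitor-like cells (clusters 3 and 6) raised Ptf1a, Kirrel2 and Prdm13, and radial progenitor-like cells (clusters 1 and 12) raised Hes5, Sox2 and Fabp7. Clusters 1, 3, 6 and 12 together are called progenitor-like. Cluster 11 was also led by Neurod1 and Neurod6, which are no interneuron markers. Cluster 2, of 2605 cells, took no name because no list met all the naming rules. It was led by Slco3a1, Robo3, March1, Igfbpl1, Ebf1 and Dcc, although neither Robo3 nor Dcc was used for clustering. Its levels of the interneuron markers Pax2 (602 CPM) and Tfap2b (880) were near those of cluster 0 (588 and 714) and cluster 11 (816 and 869). Cluster 3 held these 2 genes as well (422 and 1372). Slc32a1 (345) and Sst (49.1) were near cluster 11 (295 and 42.4) but below cluster 0 (717 and 238). Ebf1, of the Purkinje list, was higher in cluster 2 (2733 CPM) than in clusters 0 and 11 (666 and 958). So were Lhx5, of the same list (578 against 337 and 496), and Lhx1, of both lists (163 against 71.1 and 75.1). Gad1, of the Purkinje list, was lower (179 against 314 and 230). The sort also held granule lineage-like (1058), astroglia-like (1817, led by Olig1), microglia-like (446) and haemoglobin-led cells (1830), which are not GABAergic neurons. The 2 neuron classes were unevenly filled: control replicate 2 gave only 28 Purkinje-like cells, and cluster 11 made up 2.3% of interneuron-like cells in control replicate 1, 53.85% in control replicate 2 and 38.01% and 30.84% in the mutants.

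The members are spread over the genome in GRCm38: Robo1 (chromosome 16, 72308306 to 73046095, plus strand) and Robo2 (chromosome 16, 73891839 to 74411825, minus strand) are neighbours, Robo3 lies on chromosome 9 (37415669 to 37433246, minus strand), Slit1 on chromosome 19 (41600257 to 41743665, minus strand) and Slit3 on chromosome 11 (35121224 to 35708507, plus strand). RefSeq promoter windows of GRCm38.p6 were at hand for 5 of the 6 members. Since the deleted genes encode homeodomain proteins, whose common core motif is TAATTA (the same on both strands), the 250 bases before each start were searched for it. Of 32851 windows 4.84% hold the motif, and of 7 windows of the members 1 does, that of Robo3. The bases upstream of the annotated start are shown for Robo3 (chr9:37433247-37433425, minus strand, the motif in capitals) and, as the member with the smallest unadjusted p between genotypes in interneuron-like cells, for the Robo2 start that lies at the 5' end of the gene's annotated span (chr16:74411826-74412075, minus strand), both 5' to 3' and without bases that fall inside the gene's annotated span:
Robo3: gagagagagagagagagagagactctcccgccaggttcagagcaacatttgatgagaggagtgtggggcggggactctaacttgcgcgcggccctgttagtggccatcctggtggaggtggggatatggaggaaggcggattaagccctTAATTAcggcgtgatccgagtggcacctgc
Robo2: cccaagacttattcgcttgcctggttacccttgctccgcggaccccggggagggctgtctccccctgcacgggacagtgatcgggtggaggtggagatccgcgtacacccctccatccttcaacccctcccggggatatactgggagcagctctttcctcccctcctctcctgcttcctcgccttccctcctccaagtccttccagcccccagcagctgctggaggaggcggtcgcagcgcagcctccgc
A match is a description of letters and not a binding site. Its absence from the Robo2 window says only that these letters are not there.

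Summed over all kept cells, Robo3 was the most abundant Robo transcript in each library, though not in each class. Its level differed between cell types. Cluster 2 held 1144 and 449 CPM in control replicates 1 and 2 and 864 and 991 CPM in mutant replicates 1 and 2. Interneuron-like cells held 908, 370, 624 and 652 CPM in the same order. Control replicate 2 was lowest in both, and cluster 2 was above interneuron-like cells in each library. Purkinje-like cells came lower, at 358, 73.9, 284 and 238 CPM. The small unnamed cluster 15, led by Cnr1 and Pnoc, stood between cluster 2 and interneuron-like cells with a mean of 733 CPM (SD 202, n = 3 libraries). It held the interneuron markers Slc32a1, Slc6a5 and Pax2 at 565, 143 and 328 CPM, against 717, 60.9 and 588 CPM in cluster 0. Of the same list, Tfap2b (249 against 714), Tfap2a (141 against 286), Sst (24.7 against 238) and Lhx1 (14.8 against 71.1) were lower in cluster 15. Gad2 (170 against 132) was higher. Meis2, of the list for other glutamatergic neurons, was higher as well (985 against 48.8). Intermediate progenitor-like cells held 95.5, 27.2, 59.1 and 71.0 CPM and radial progenitor-like cells 38.3, 10.97, 11.9 and 17.1 CPM. Microglia-like cells, which should lack the gene, held 40.5, 13.6, 3.5 and 39.8 CPM. Radial progenitor-like cells stood above this background of the same library only in mutant replicate 1, where the microglia-like value rests on 1 UMI. In order of mean level, the ranges of cluster 2, cluster 15 and interneuron-like cells overlapped, interneuron-like cells lay apart from Purkinje-like cells (lowest 370 against highest 358 CPM), and all later neighbours overlapped.

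**Figure D1:**
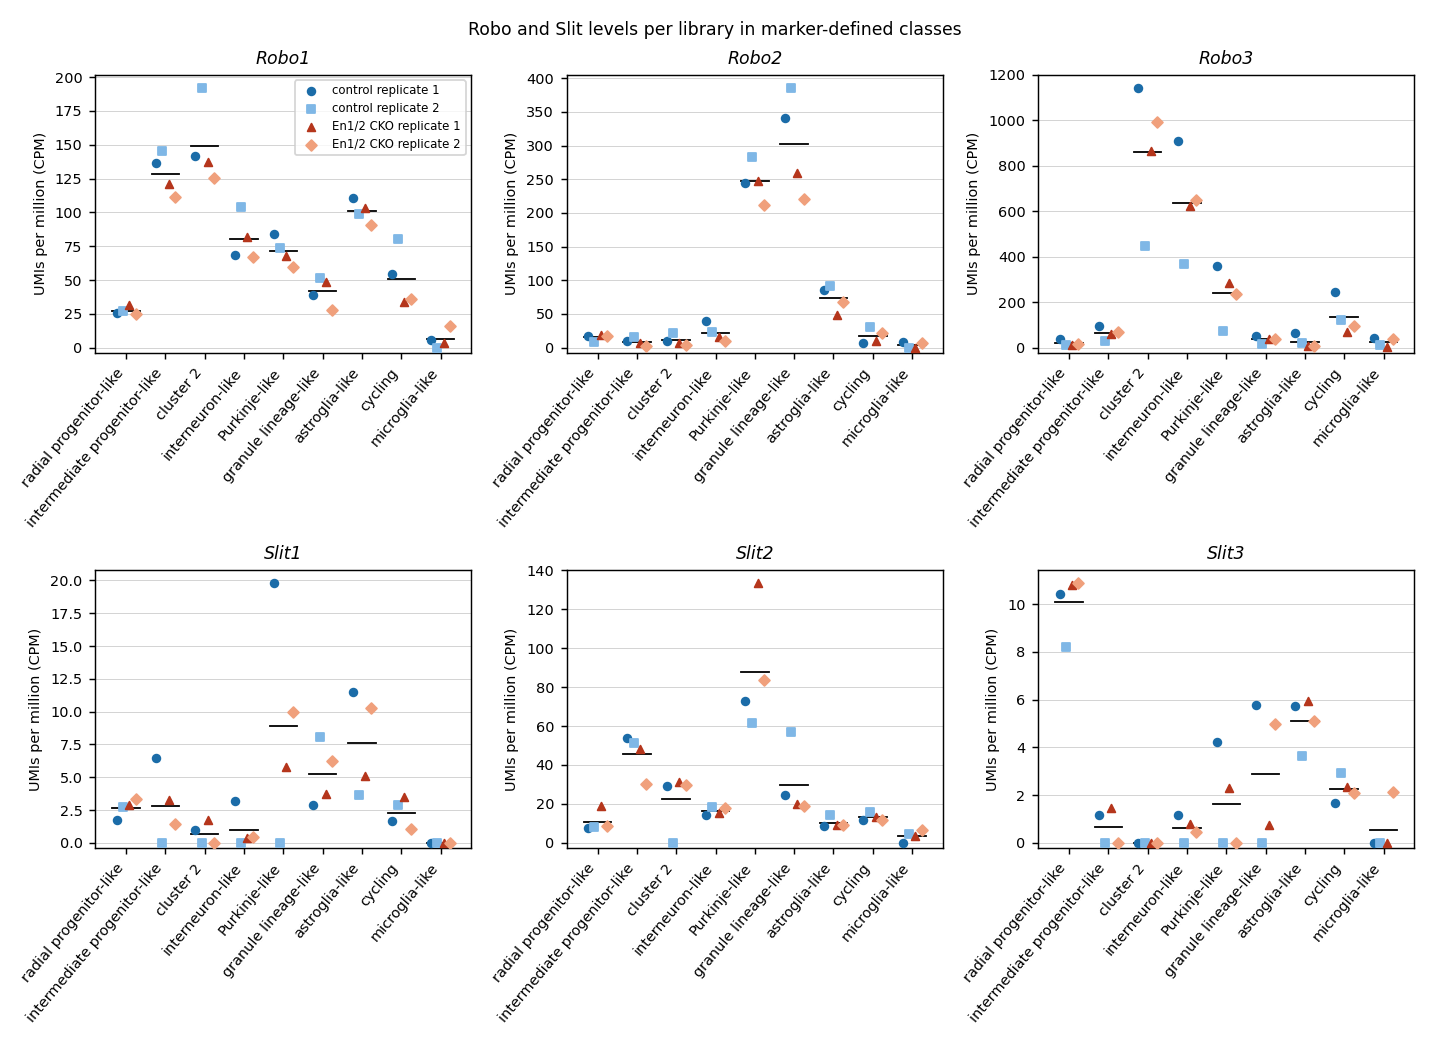
Level in CPM (y axis, linear and scaled per gene) of each of the 6 members in 9 classes (x axis), with 1 point per library and a line at the mean over libraries. Robo3 is highest in cluster 2 and interneuron-like cells (means 862 and 638 CPM), Robo2 in granule lineage-like and Purkinje-like cells (302 and 247), Robo1 in cluster 2 and intermediate progenitor-like cells (149 and 129), Slit2 in Purkinje-like cells (87.9), and Slit1 and Slit3 stay at or below 19.8 CPM in each point shown.

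The share of cells with at least 1 Robo3 UMI followed the same order. It was 54.1%, 49.5%, 61.3% and 57.3% of interneuron-like cells and 24.4%, 10.7%, 24.8% and 20.7% of Purkinje-like cells, against 9.1%, 4.6%, 1.6% and 9.9% of microglia-like cells. After each cell was thinned to 1000 UMIs, the shares were 48.7%, 27.3%, 41.1% and 41.4% of interneuron-like cells and 19.0%, 8.3%, 19.1% and 15.2% of Purkinje-like cells, against 5.0%, 1.6%, 1.6% and 2.4% of microglia-like cells. Thinning left out 2598, 163, 1148 and 3066 cells that held fewer. At equal depth interneuron-like cells thus kept the higher share in each library. Purkinje-like cells held a median of 1296 UMIs, interneuron-like cells 1284 and microglia-like cells 3454.

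The 2 Purkinje-like clusters differed in their receptors. Cluster 7, led by Nrgn, Adcyap1 and Islr2, held Robo3 at 573, 368, 389 and 498 CPM. Cluster 10, led by Snhg11, Fgf3 and the neurofilament gene Nefl, held 56.2, 14.8, 55.1 and 49.5 CPM. Each library had several times more Robo3 in cluster 7 than in cluster 10, although the value of control replicate 2 rests on 7 and 21 cells. Within libraries Robo3 was higher in cluster 7 by 3.31 on the log2 scale (SE 0.31, edgeR quasi-likelihood test, adjusted p = 2.148e-23), and 2 of the 4 members tested passed, beside 7.47% of all genes. The comparison was added after the clusters had been seen, and the clusters were set by other genes of the same cells. Of the glutamatergic marker list, Slc17a6 (37.4 against 1.13 CPM), Lhx9 (13.7 against 1.69) and Meis2 (236 against 14.7) were higher in cluster 10 than in cluster 7. Neurod6 (47.4 against 104) and Nhlh2 (124 against 470) were lower. At resolution 2, 189 cells led, like cluster 10, by Snhg11 took the name other glutamatergic neuron. The part of such cells in the differences between clusters 7 and 10 was not tested.

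The ligand Slit2 went the other way. It held 114, 74.0, 246 and 110 CPM in cluster 10 and 43.6, 0, 82.1 and 47.5 CPM in cluster 7, the 0 resting on 7 cells and allowing up to 221 CPM. Cluster 10 was higher in the other 3 libraries, and over all 4 by 1.37 on the log2 scale (cluster 7 minus cluster 10 -1.37, SE 0.28, edgeR adjusted p = 5.114e-05). This call was lost when any one of control replicate 1, mutant replicate 1 or mutant replicate 2 was left out (-4.39, -1.28 and -1.47). Robo2 was at 344, 281, 401 and 226 CPM in cluster 10 and at 174, 294, 178 and 193 CPM in cluster 7. Cluster 10 was higher in 3 of 4 libraries, and the difference did not pass (-0.75, SE 0.26, edgeR adjusted p = 0.05327). Robo1 did not pass either (0.41, SE 0.29, edgeR adjusted p = 0.6129).

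**Figure D2:**
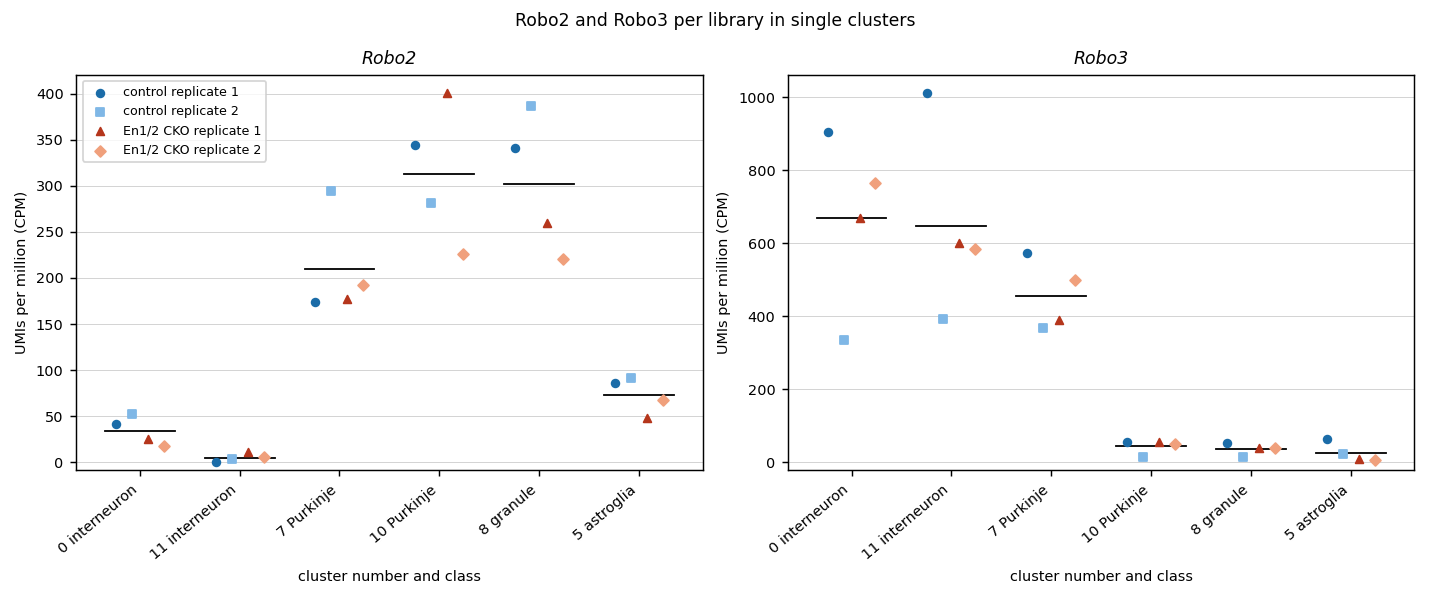
Robo2 (left) and Robo3 (right) levels in CPM (y axis) in 6 single clusters (x axis), with 1 point per library and a line at the mean over the libraries. Cluster 10 and cluster 7 are separated by Robo3 in each library, and both controls lie above both mutants for Robo2 in clusters 0, 8 and 5 but not in clusters 11, 7 and 10.

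Robo2 was highest in other classes than Robo3, although cluster 7 held both. Granule lineage-like cells held 341, 386, 259 and 221 CPM and Purkinje-like cells 245, 283, 247 and 212 CPM, and these ranges overlapped. Astroglia-like cells followed at 86.0, 91.2, 48.4 and 67.7 CPM, apart from Purkinje-like cells. Interneuron-like cells held 39.9, 22.8, 15.9 and 10.5 CPM, and intermediate progenitor-like cells 9.4, 15.1, 6.6 and 2.8 CPM, beside 8.7, 0, 0 and 7.5 CPM in microglia-like cells. The ranges of all classes below astroglia-like cells overlapped with those of their neighbours in the order. Within interneuron-like cells, Robo2 sat in cluster 0, at 41.6, 52.2, 24.9 and 18.1 CPM, and was near the background in cluster 11, at 0, 3.4, 11.4 and 6.0 CPM.

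Robo1 was the most evenly spread receptor. Cluster 2 held 141, 192, 137 and 125 CPM, intermediate progenitor-like cells 137, 145, 121 and 112 CPM and astroglia-like cells 110, 98.5, 104 and 90.5 CPM. The intermediate clusters differed, with means of 169 CPM in cluster 3 (SD 28.2, n = 4) and 79.5 CPM in cluster 6 (SD 16.1, n = 4). Interneuron-like cells held 68.6, 104, 81.7 and 67.3 CPM and Purkinje-like cells 84.2, 73.9, 67.9 and 59.8 CPM. The neuron classes overlapped each other, and radial progenitor-like cells were lowest of the named neural classes, at 25.5, 27.4, 31.7 and 25.1 CPM. Microglia-like cells held 5.8, 0, 3.5 and 16.1 CPM.

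The make-up of the receptor transcripts therefore changed with the class. The 3' chemistry is meant to count 1 end per transcript, but whether intronic reads were counted is not known. Robo1, Robo2 and Robo3 span 737.8, 520.0 and 17.6 kb, and the part of gene length in these shares was not tested. Each gene's 3' end may also be captured with a different yield. Robo3 made up 89.3%, 74.5%, 86.5% and 89.3% of the Robo1, Robo2 and Robo3 UMIs of interneuron-like cells. Robo1 made up 56.6%, 77.4%, 64.8% and 60.2% of those of intermediate progenitor-like cells. Robo2 made up 75.4%, 73.1%, 76.8% and 67.3% of those of cluster 10 and 78.7%, 85.1%, 74.8% and 77.0% of those of granule lineage-like cells. One receptor led in each of these classes in each library. In cluster 7 Robo3 led instead, with 67.3%, 55.6%, 61.2% and 66.4%, where the second value rests on 9 UMIs (exact 95% interval 21.2% to 86.3%).

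**Figure D3:**
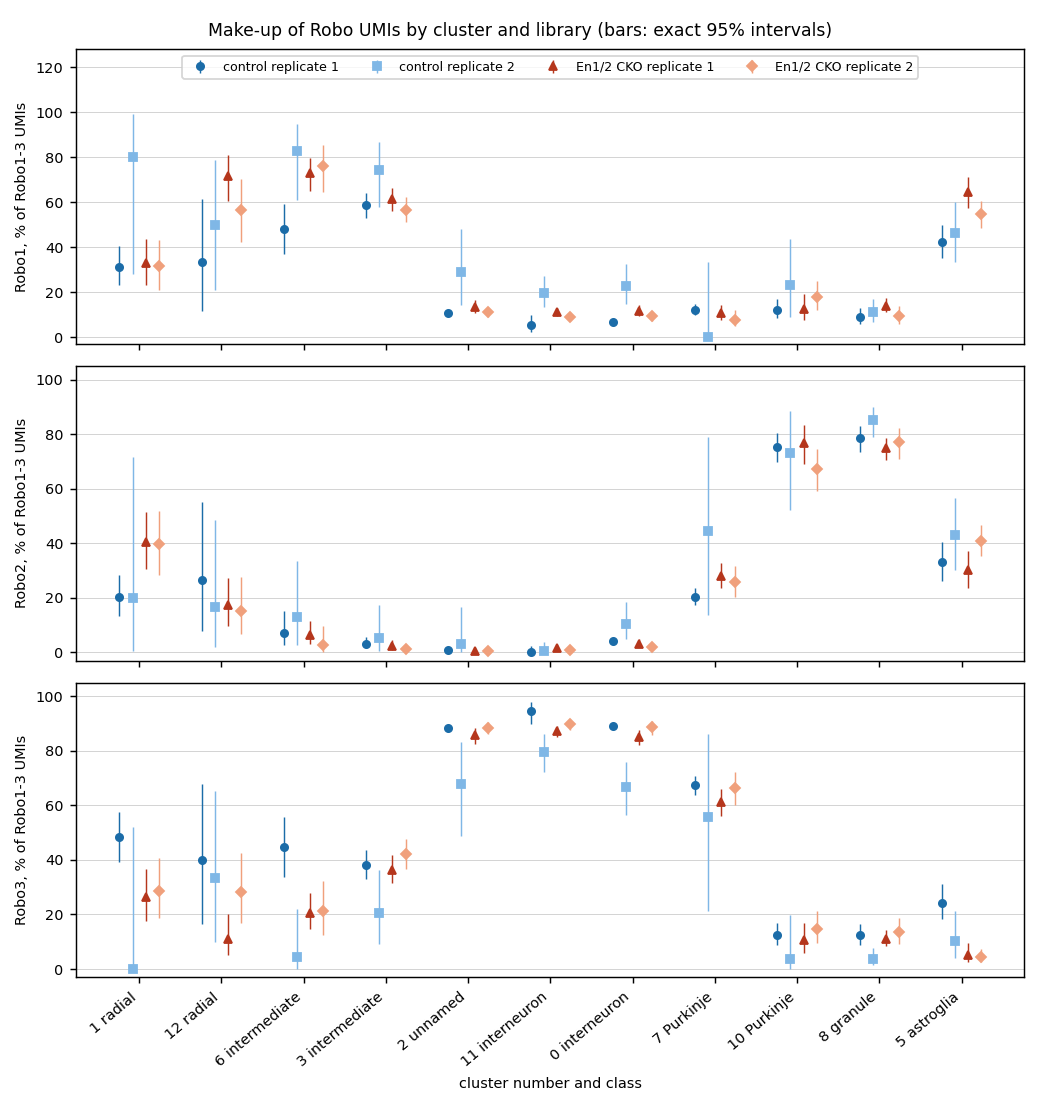
Share of the Robo1, Robo2 and Robo3 UMIs that each receptor contributed (y axis, percent, 1 panel per receptor) in 11 clusters (x axis), with 1 point per library and exact 95% binomial intervals, which cover counting error only. Robo1 leads in both intermediate progenitor clusters (6 and 3) in each library, Robo3 in clusters 2, 11, 0 and 7, and Robo2 in clusters 10 and 8.

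Class differences were tested within libraries, in 1 fit of UMI sums over all 4 libraries. Between interneuron-like and Purkinje-like cells 4 of 6 members passed, beside 23.3% of all genes tested. Robo3 was higher in interneuron-like cells (log2 fold change 1.43, SE 0.13, edgeR adjusted p = 3.999e-10). Robo2 was lower there (-3.37, SE 0.13, edgeR adjusted p = 1.833e-18), as was Slit2 (-2.46, SE 0.18, edgeR adjusted p = 3.763e-12). Slit1 was lower as well, on 28, 0, 5 and 8 UMIs in Purkinje-like cells against 11, 0, 1 and 1 in interneuron-like cells (-3.28, SE 0.54, edgeR adjusted p = 1.984e-05). Robo1 did not pass (0.07, SE 0.14, edgeR adjusted p = 0.7825). Against cluster 10 alone the Robo3 difference was 3.95, and when the cells were filtered harder and clustered anew, so that the name interneuron-like fell on other cells, it was -0.10. With the same harder filter and the original classes it was 1.36.

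Progenitor-like cells differed from both neuron classes. Against Purkinje-like cells 4 of 6 members passed, beside 52.6% of genes: Robo2 (-4.35), Robo3 (-2.63), Slit2 (-1.70) and Slit1 (-1.90) were all lower in progenitor-like cells. The Robo3 difference was -0.10 and did not pass against cluster 10 alone. Against interneuron-like cells 5 of 6 passed, beside 52.9% of genes. Robo3 was lower in progenitor-like cells (-4.06, SE 0.14, edgeR adjusted p = 1.278e-20) and Robo2 lower (-0.97, SE 0.18, edgeR adjusted p = 2.871e-05), while Slit2 (0.76), Slit1 (1.39) and Slit3 (2.65) were higher. The Robo2 value averages unlike genotypes. Control means were 12.3 CPM in progenitor-like and 31.4 in interneuron-like cells, and mutant means were 11.4 and 13.2. Cluster 11, on the interneuron side, had a mean of 5.22 CPM. For Slit2 only cluster 3, with a mean of 74.0 CPM (SD 22.5, n = 4), lay above interneuron-like cells (16.5 CPM, SD 2.22), while clusters 6, 12 and 1 had means of 13.6, 11.3 and 10.6 CPM. When the cells were clustered anew, Slit2 turned to -2.17 with the harder cell filter and to -0.55 at a finer resolution, both called, and Robo2 to 1.21 with the harder filter. Only Robo3 of these 5 kept its call in each fit that left out 1 library, since without control replicate 1 it was the single member called.

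Among the ligands Slit2 had the highest levels, with a class mean of up to 87.9 CPM against at most 8.88 CPM for Slit1 and 10.09 CPM for Slit3. Purkinje-like cells held 72.9, 61.6, 133 and 83.5 CPM, intermediate progenitor-like cells 53.7, 51.4, 48.1 and 30.3 CPM and interneuron-like cells 14.2, 18.7, 15.1 and 18.1 CPM. Interneuron-like cells lay below both other classes in each library, but the intermediate progenitor-like value mixes unlike clusters. Cluster 3 held 76.6, 99.1, 75.8 and 44.5 CPM and cluster 6 held 11.7, 15.8, 19.4 and 7.4 CPM, which overlaps interneuron-like cells. Choroid plexus-like cells, present in the mutant libraries alone (68 and 21 cells), held a mean of 85.0 CPM (SD 12.4, n = 2). Microglia-like cells held 0, 4.5, 3.5 and 6.5 CPM. Slit2 lies in mouse GRCm38 on chromosome 5 from 47983138 to 48307733, plus strand, and overlaps a measured antisense gene, 4930518C09Rik. It is 19.81 Mb from En2, so in mutants it may sit on chromosome pieces inherited with the floxed allele, and an effect of linked DNA and an effect of the deletion cannot be told apart for it.

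Slit1 and Slit3 were low in each class. Slit1 was highest in Purkinje-like cells, at 19.8, 0, 5.8 and 10.0 CPM, where the 0 allows up to 36.9 CPM. Slit3 was highest in radial progenitor-like cells, at 10.4, 8.2, 10.8 and 10.9 CPM from 18, 3, 30 and 23 UMIs. Most of these UMIs came from cluster 12, at 59.5, 11.1, 15.1 and 21.6 CPM from 14, 2, 19 and 19 UMIs, against 2.7, 5.4, 7.2 and 3.2 CPM in cluster 1. Cluster 12 thus varied far more between libraries than the class, and lay above the level that a count of 0 allows in 3 of 4 libraries. Slit3 was at 1.2, 0, 0.8 and 0.5 CPM in interneuron-like cells. Slit3 between progenitor-like and Purkinje-like cells did not pass (1.33, SE 0.60, edgeR adjusted p = 0.06245).

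No member passed between genotypes in any class tested, and few genes did. Called genes made up 0% of those tested over all cells, in interneuron-like, in progenitor-like, in granule lineage-like and in astroglia-like cells, and 0.0221% in Purkinje-like cells, with 693, 425, 632, 349, 409 and 286 genes at an unadjusted p under 0.05 in these 6 fits in that order. DESeq2 called no member either. With 2 libraries in each group, only differences far beyond the spread between pools can pass.

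Within the neuron and progenitor classes the largest difference between genotypes was that of Robo2 in interneuron-like cells, where both controls (39.9 and 22.8 CPM) were above both mutants (15.9 and 10.5 CPM). Its log2 fold change was -1.39 (SE 0.36, unadjusted p = 0.005747, edgeR adjusted p = 0.98). The control values rest on 138 and 11 Robo2 UMIs and the mutant values on 40 and 22. The lower mutant value was near the background, since microglia-like cells reached 8.68 CPM. In cluster 0 the controls, at 41.6 and 52.2 CPM, were again above the mutants, at 24.9 and 18.1 CPM, and in cluster 11, on 0, 1, 19 and 8 UMIs, the order was the opposite. Robo2 was also lower in both mutants than in both controls in granule lineage-like cells (-0.62, SE 0.30, edgeR adjusted p = 0.9187) and in astroglia-like cells (-0.64, SE 0.31, edgeR adjusted p = 0.9889). In Purkinje-like cells the groups overlapped (-0.16, SE 0.34, edgeR adjusted p = 0.999). In granule lineage-like cells without control replicate 1, and in interneuron-like cells without control replicate 2, the Robo2 difference passed (-0.79 and -1.55).

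The difference between these genotype effects was itself tested. The effect on Robo2 in Purkinje-like cells minus that in interneuron-like cells was 1.41 on the log2 scale (SE 0.28, edgeR adjusted p = 0.03599), the only member among 8 genes called, which are 0.0674% of those tested. En2 was another of the 8 (1.54, edgeR adjusted p = 0.01691). The Robo2 call was lost without control replicate 1 (0.80), without mutant replicate 1 (1.5) and without mutant replicate 2 (1.14), with DESeq2 (1.31), with doublets kept (0.92), at the finer clustering resolution (0.84), with the members among the variable genes (1.49) and with thinned cells (1.61). It was also lost with the harder cell filter, where the value was 1.42 in the original classes and -0.21 in new clusters, and with cluster 0 alone as the interneuron side (0.91, edgeR adjusted p = 0.9516). It was kept with RLE size factors, without the low-count filter, without control replicate 2 and with cluster 10 alone as the Purkinje side (1.33 to 1.5). The share of cluster 11, where Robo2 is near background, moved with the libraries as given above, and its part in the result was not tested beyond that last value.

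For Robo3 the spread between the controls exceeded the difference between genotypes in the neuron classes. In interneuron-like cells the controls, at 908 and 370 CPM, lay on either side of the mutants, at 624 and 652 CPM. The log2 fold change was -0.04 (SE 0.41, edgeR adjusted p = 0.9995) and turned from 0.69 without control replicate 1 (adjusted p = 0.02474) to -0.50 without control replicate 2 (adjusted p = 0.006398), so that leaving out either control gave a call, in opposite directions. The value in Purkinje-like cells was 0.05 (SE 0.46, edgeR adjusted p = 0.999) and moved to 1.87 (called) and -0.47 in the same way. The mix of clusters differed there too: cluster 10, which is low in Robo3, made up 75.0% of the Purkinje-like cells of control replicate 2, against 40.43% in control replicate 1 and 36.82% and 47.87% in the mutants. The part of this mix in the Purkinje-like value was not tested. Control replicate 1, the library with the high Malat1 level, had the highest Robo3 level in cluster 2 and in interneuron-like, Purkinje-like, intermediate progenitor-like and granule lineage-like cells, and control replicate 2, the library with few passing barcodes, the lowest. The part of either library property in these levels was not tested.

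In astroglia-like cells Robo3 was at 63.0 and 21.9 CPM in controls and at 8.5 and 7.4 CPM in mutants. Its log2 fold change was -2.65 (SE 0.50, unadjusted p = 0.0008877, edgeR adjusted p = 0.9889). It passed with no low-count filter (-2.60) and without control replicate 2 (-3.02). Microglia-like cells, which show the background, held 40.5, 13.6, 3.5 and 39.8 CPM, so 3 of these 4 astroglial values lay within the background range over libraries. Within the same library the astroglial value was above the microglia-like value in both controls and in mutant replicate 1. In mutant replicate 2 it was below. The microglia-like values of control replicate 2 and mutant replicate 1 rest on 3 and 1 UMIs. En1 and En2 were placed the same way in astroglia-like cells, at 41.6 and 21.9 against 5.9 and 4.6 CPM and at 55.9 and 10.9 against 3.4 and 2.3 CPM.

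Robo1, Slit1, Slit2 and Slit3 did not pass in any genotype fit on all 4 libraries that tested them. Robo1 was lower in mutants by small amounts in each tested class, from -0.17 in astroglia-like cells to -0.40 over all cells. Slit2 in Purkinje-like cells was at 72.9 and 61.6 CPM in controls and at 133 and 83.5 CPM in mutants (0.62, SE 0.35, edgeR adjusted p = 0.999). Both mutants lay above both controls. Over all cells Slit2 was -0.10 (SE 0.28). Slit1 and Slit3 had too few UMIs to be tested in either neuron class alone.

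**Figure D4:**
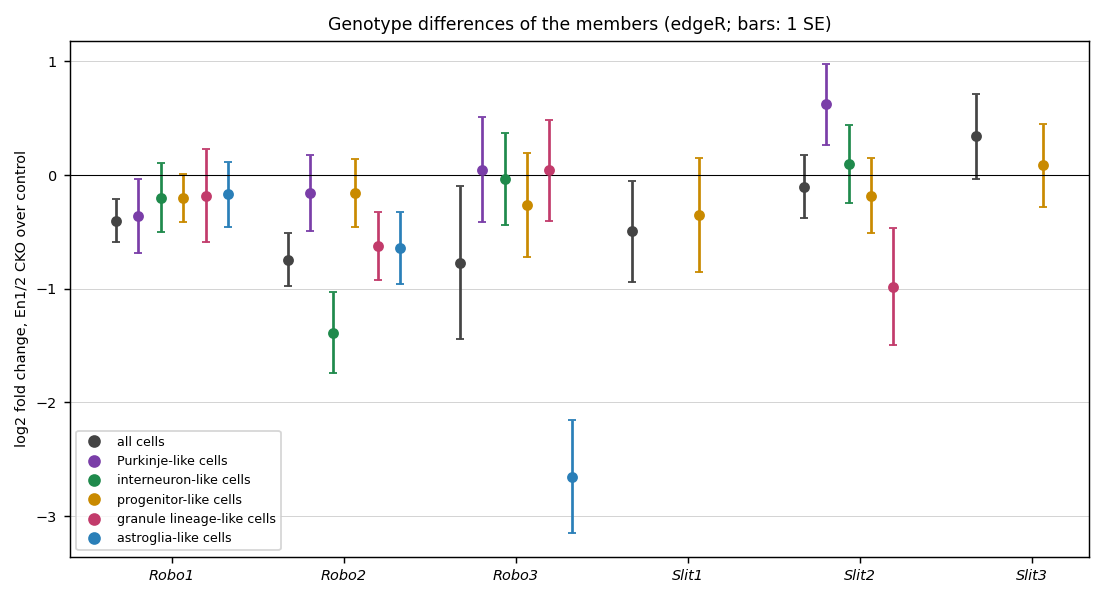
Log2 fold change of mutant over control libraries (y axis) for each member (x axis) in 6 sets of cells, with bars of 1 standard error from edgeR's fit on 2 against 2 libraries. No value passed the adjusted threshold, and those farthest from 0 are Robo3 in astroglia-like cells (-2.65) and Robo2 in interneuron-like cells (-1.39). Members too low to be tested in a set have no point.

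The wider pathway was followed through 44 genes of Slit and Robo signalling: the srGAP proteins that bind Robo tails, the Nell ligands, the netrin axis, heparan sulfate carriers, cytoskeletal effectors and the Cxcl12 receptor Cxcr4. None passed between genotypes in any class or in the test of the difference between classes. Between interneuron-like and Purkinje-like cells 5 of 42 tested genes passed as higher and 7 as lower in interneuron-like cells, which is 28.57% beside 23.3% of all genes, with a list median of -0.13 beside 0.02 over all genes. Nell2, the secreted Robo3 ligand, was at 70.1, 36.9, 33.4 and 88.5 CPM in Purkinje-like cells and at 7.5, 4.2, 5.2 and 4.3 CPM in interneuron-like cells (-3.36, SE 0.24, edgeR adjusted p = 3.313e-12). Dcc, the netrin receptor, was higher in interneuron-like cells, at 290, 407, 454 and 437 CPM against 154, 135, 133 and 87.3 CPM (1.61, SE 0.14, edgeR adjusted p = 1.811e-10). Srgap2 was higher there as well (0.96) and so was Srgap3 (0.72), while Srgap1 was lower (-0.34). The remaining calls were Ntn1, which encodes netrin (3.80), and Ext1, a heparan sulfate polymerase (0.68), as higher, and Nell1 (-4.66), Cxcr4 (-1.69), Flrt3 (-1.06), the glypican Gpc1 (-0.94) and the syndecan Sdc3 (-0.58) as lower.

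Between the Purkinje-like clusters 3 of the 31 list genes tested passed, 9.68% beside 7.47% of all genes. Nell2 was at 155, 44.4, 80.9 and 135 CPM in cluster 10 and at 9.7, 0, 11.7 and 23.7 CPM in cluster 7 (-3.23, SE 0.35, edgeR adjusted p = 1.649e-17). Robo3 and its ligand Nell2 were thus high in opposite Purkinje-like clusters, of which cluster 10 held more of some glutamatergic and some Purkinje markers, as given above. Dcc was at 216, 441, 156 and 145 CPM in cluster 7 and at 68.1, 74.0, 84.5 and 45.2 CPM in cluster 10 (1.55, SE 0.27, edgeR adjusted p = 6.586e-07). The third call was Sdc3 (-0.80, edgeR adjusted p = 0.03642). En1 was placed like Robo3, at 407, 73.5, 350 and 582 CPM in cluster 7 and at 42.6, 29.6, 18.4 and 12.9 CPM in cluster 10, where the values of control replicate 2 rest on 1 and 2 UMIs (4.09, SE 0.35, edgeR adjusted p = 1.239e-28).

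Progenitor-like cells had 11 list genes higher and 17 lower than Purkinje-like cells, and 12 higher and 17 lower than interneuron-like cells, of 42 tested. These are 66.67% and 69.05% of the list beside 52.6% and 52.9% of all genes, and the list medians were -0.06 and -0.10 beside 0.032 and -5e-04 over all genes. Of the heparan sulfate carriers, Sdc4 (4.91), Sdc2 (3.90), Gpc1 (2.49) and Sdc1 (1.56) were higher in progenitor-like than in interneuron-like cells and Sdc3 was lower (-0.30). Cxcr4 was at 57.3, 56.1, 33.3 and 32.4 CPM in progenitor-like cells and at 4.3, 4.2, 0.8 and 1.4 CPM in interneuron-like cells (4.18, SE 0.24, edgeR adjusted p = 2.465e-15). All 3 srGAP genes were lower in progenitor-like than in interneuron-like cells (Srgap2 -1.60, Srgap1 -1.43, Srgap3 -0.58).

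Over 48 sums of class and library in 13 classes, the 3 genes most like each member in level were named by Pearson correlation of log2(CPM + 10), as a description over sums that share libraries and depth. For Robo3 they were Thsd7a (0.94), Celf4 (0.92) and the vesicular GABA transporter Slc32a1 (0.91). For Robo2 they were Trhde (0.84), Epha5 (0.81) and Pde1c (0.81), and for Robo1 Zbtb20 (0.86), A230057D06Rik (0.85) and Gsk3b (0.82). For Slit2 they were Dapk1 (0.74), Kalrn (0.72) and Rab11fip4 (0.71). Between members the values were low, from -0.10 for Robo2 with Robo3 to 0.44 for Robo1 with Robo3.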

How the data were processed

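Each library was read as UMI counts per gene and barcode, deposited by the authors as unnormalized whole numbers with lists of gene names and cell barcodes; per the submitters' processing notes they come from Cell Ranger 6.1.0 and the mm10 mouse build, while the annotation release and whether intronic reads were counted are not given in the sources used here. Barcodes were dropped below 500 detected genes or above a mitochondrial share of 10%, and doublets were removed with Scrublet, at its automatic threshold in control replicate 2 and at an expected rate of 0.8% per 1000 barcodes in the other 3 libraries, where the automatic threshold marked too few (0.51% to 9.215% removed). Cells were clustered together with scanpy 1.11.5 and leidenalg 0.10.2 (2000 variable genes, 30 components, 15 neighbours, resolution 1), leaving the 6 members and the 44 pathway genes out of the variable genes. A marker counted as raised at 1.5 times or more the level of all other cells, with 10 CPM added to both. It also had to be detected in at least 1% of the cluster's cells. A name needed at least 3 raised markers of its list, among them 1 or more of the first 3. No other list could hold more of the cluster's 10 leading genes. Ties went to the list with the larger raised share. Where no list held a leading gene, a median UMI count below 1/3 of that of the libraries barred a name.

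Counts were summed per library and class and tested with edgeR 4.0.16 (quasi-likelihood F test, TMM, filterByExpr, two-sided, Benjamini-Hochberg over all genes tested, threshold 0.05) in R 4.3.3. Genotype fits used 2 against 2 libraries. Class differences, and the difference of the genotype effect between classes, came from 1 fit of 12 sums with the library as a block. DESeq2 1.42.0, RLE size factors, no low-count filter, the replicate block, leaving out each library, a stricter cell filter (1000 detected genes, mitochondrial share 5%), doublets kept, resolution 2, the members among the variable genes and cells thinned to 1000 UMIs were tried as alternatives. The comparison of clusters 7 and 10, the genotype fits in granule lineage-like and astroglia-like cells, single clusters as class sides, crossed replicate numbers and the stricter filter with the original classes were chosen after seeing the data. Intervals are exact at 95%, and a count of 0 allows up to 3 counts. Both cover counting error only. All 6 members and, of the pathway list, the genes past the threshold were named, with at most the 3 most similar genes per member. The members and lists were chosen with earlier results of these data known. The test scripts were tested on simulated data first.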

Additional observations from a re-analysis of the deposited data

Results flagged for a closer look

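The genotype effect on Robo2 differed between Purkinje-like and interneuron-like cells by 1.414 on the log2 scale in a test of the difference itself (edgeR quasi-likelihood test, adjusted p = 0.03599). The mutant libraries were at 247 and 212 CPM in Purkinje-like cells, against 245 and 283 CPM in controls, and at 15.9 and 10.5 CPM in interneuron-like cells, against 39.9 and 22.8 CPM. The interneuron-like values rest on 40 and 22 UMIs in mutants and on 138 and 11 in controls. Adjusted p was 0.002834 without control replicate 2, 0.6913 without control replicate 1 and 1 without either mutant replicate. With cluster 0 alone as interneuron-like the difference was 0.91 (adjusted p = 0.9516), and with the harder cell filter and new clusters -0.21 (adjusted p = 0.996). What the difference reflects was not tested.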

How the results depend on the processing

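Of 236 alternative values for class differences 199 kept their direction and their side of the threshold, as did 255 of 317 for genotype differences and 50 of 71 for the difference between genotype effects. The direction changed in 13, 52 and 11 of them. Depth limits Slit1 and Slit3, and control replicate 2 limits every value of Purkinje-like cells, of which it holds 28. Where no cause is named below, the cause was not tested.

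The replicate numbers were not shown to pair the libraries: same-numbered libraries deviated together by a correlation of 0.04 over all cells and 0.06 in Purkinje-like cells, and by -0.17 within interneuron-like cells and -0.27 within progenitor-like cells. With the replicate block the genes called between genotypes went from 0 to 117 over all cells and to 10 in interneuron-like cells, and stayed at 2 in Purkinje-like and 0 in progenitor-like cells, with no member among them, and Robo3 in interneuron-like cells was 0.085. With crossed replicate numbers as a block 19 genes were called among interneuron-like cells and 4 among progenitor-like cells, again no member, and Robo3 in interneuron-like cells was 0.084.

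Genotype values that turned without passing were, with the stricter cell filter and new clusters, Slit2 (0.15) and Slit3 (-0.22) over all cells, Robo3 (-0.13) and Slit2 (-0.037) in Purkinje-like cells, Robo3 in interneuron-like cells (0.044), and Robo1 (0.09) and Slit2 (0.99) in progenitor-like cells. With that filter and the original classes they were Slit2 (0.15) and Slit3 (-0.22) over all cells, Slit2 in Purkinje-like (-0.056) and interneuron-like cells (-0.10), Robo1 (0.23), Robo3 (0.19), Slit2 (0.78) and Slit3 (-0.17) in progenitor-like cells, and Robo3 in granule lineage-like cells (-0.41). With thinned cells they were Slit2 (0.11) and Slit3 (-0.26) over all cells, Robo1 (0.058), Robo2 (0.27) and Robo3 (-0.28) in Purkinje-like cells, Slit2 in interneuron-like cells (-0.10) and Robo2 in progenitor-like cells (0.59). With doublets kept they were Robo3 in Purkinje-like cells (-0.23), and Robo3 (0.57) and Slit3 (-0.17) in progenitor-like cells. At resolution 2 they were Robo1 in progenitor-like (0.031), Purkinje-like (0.20) and interneuron-like cells (0.22), Robo3 in interneuron-like (0.14) and progenitor-like cells (0.50), and Slit2 (0.35) and Slit3 (-0.38) in progenitor-like cells. With the members among the variable genes Robo3 was -0.0019 in Purkinje-like and 0.15 in interneuron-like cells, and with cluster 0 alone as interneuron-like Robo1 was 0.0102 and Robo3 0.13 there.

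Class differences that turned were, with the stricter filter and new clusters, Robo3 between interneuron-like and Purkinje-like cells (-0.10), and Robo2 (1.21) and Slit2 (-2.17) between progenitor-like and interneuron-like cells, the last also at resolution 2 (-0.55). Robo1 between interneuron-like and Purkinje-like cells was -0.12 with thinned cells. Robo1 between progenitor-like and Purkinje-like cells was 0.055 with RLE size factors, 0.067 with DESeq2, 0.0028 without the low-count filter, 0.069 with doublets kept and 0.29 with cluster 10 alone. For the difference between genotype effects, Robo2 (-0.21), Robo3 (-0.27) and Slit2 (-0.17) turned with the stricter filter and new clusters, Robo3 (-0.14) and Slit2 (-0.063) with doublets kept, Robo3 with the members among the variable genes (-0.042) and with thinned cells (-0.0031), Slit2 with cluster 0 alone (-0.13) and Robo1 with cluster 10 alone (0.11).

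The 5 members called between progenitor-like and interneuron-like cells became 2 with doublets kept and 3 with either form of the stricter filter, with thinned cells, with the members among the variable genes and with cluster 0 alone. The 4 called between interneuron-like and Purkinje-like cells became 2 with the stricter filter and new clusters. The 1 called for the difference between genotype effects became 0 under all of these settings, with DESeq2 and at resolution 2. Without the low-count filter 1 member, Robo3, was called between genotypes in astroglia-like cells.

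Leaving out 1 library at a time moved the members called between genotypes from 0 to 2 over all cells, in interneuron-like and in granule lineage-like cells and from 0 to 1 in Purkinje-like, progenitor-like and astroglia-like cells. The counts called ranged from 1 to 4 between progenitor-like and interneuron-like cells, from 1 to 3 between clusters 7 and 10 and from 0 to 1 for the difference between genotype effects. Genotype values of Robo3 ranged from -1.46 to 0.66 over all cells, from -0.47 to 1.87 in Purkinje-like, from -0.50 to 0.69 in interneuron-like, from -0.73 to 1.00 in progenitor-like and from -0.35 to 1.13 in granule lineage-like cells. Those of Slit2 ranged from -0.42 to 0.17 over all cells, from -0.27 to 0.24 in interneuron-like and from -0.62 to 0.15 in progenitor-like cells. Those of Slit1 ranged from -0.82 to 0.24 over all cells and from -0.53 to 0.85 in progenitor-like cells, and Robo1 in interneuron-like cells from -0.57 to 0.14. Robo1 ranged from -0.018 to 0.31 between progenitor-like and Purkinje-like cells and from -3.79 to 0.52 between clusters 7 and 10. For the difference between genotype effects Robo1 ranged from -0.50 to 0.59 and Slit2 from -0.072 to 1.33. Where an arm had 1 library, it was assumed to vary like the others.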
